A study of Rattus norvegicus with 42 samples.

Results

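The comparison concerns 6 of 42 Affymetrix rat arrays: 3 of a mixture labelled 60% liver, 35% brain and 5% lung, and 3 of a mixture labelled 65% liver, 34% brain and 1% lung. They were grouped by the tissue label, with earlier results of these data known, and are called 60/35/5 and 65/34/1 here, in the order liver, brain, lung. The series held 14 groups of 3 arrays, namely the 3 pure tissues and 11 mixtures made by combining labelled RNA (cRNA), from untreated rats aged 9 to 12 weeks. Its stated purpose was to test how well, and down to what share, tissue composition can be recovered statistically. The labels describe the 3 arrays of a group as technical replicates, so every p-value below measures the spread between arrays of the same RNA and not between animals.

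From 65/34/1 to 60/35/5 the labelled lung share grew 5-fold (2.32, log2), while liver changed by -0.12 (log2) and brain by 0.04. The question is which lung genes, and through them which lung cell types, can still be read when lung is a trace of the RNA. Lung is built from flat alveolar type 1 cells that exchange gas, cuboidal type 2 cells that make surfactant, airway club and ciliated cells, a dense capillary endothelium, matrix-producing and muscle cells, and resident leukocytes. Surfactant and club cell proteins are secreted in bulk, and their transcripts are among the most abundant in the organ. Liver and brain contain endothelium, macrophages and matrix of their own, so a transcript of those cells can also come from liver or brain RNA. Some type 2 cell genes also read outside lung, such as Abca3 at 7.82 (log2) in pure liver and 7.79 in pure brain. The part of such a background in the differences between cell types was not tested.

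Array medians were 5.71 to 5.74 (log2) in 60/35/5 and 5.71 to 5.72 in 65/34/1, and the median SD between replicate arrays was 0.10 and 0.08. The median difference between both mixtures over all 31042 probe sets was -0.02. The deposited levels came from RMA, which equalises array distributions, so these values cannot show whether the scale was shared. Pure tissues carried their defining genes. Snap25 of the synapse read 13.33 in brain and 3.94 in lung, and the surfactant gene Sftpc 13.88 in lung and 3.81 in brain. Albumin (Alb), the main secreted protein of hepatocytes, read 14.31 in liver and 5.07 in lung, but 12.21 in pure brain. The other 16 measured hepatocyte genes lay between 3.22 and 7.71 in brain, with Apoc3 the highest of them, and between 11.37 and 13.58 in liver. The part of this brain signal in the results was not tested.

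The label that all tissues came from 1 animal went against 2 sex-linked transcripts. Xist, the RNA that coats the inactive X chromosome in female cells, lay between 9.63 and 11.11 (log2) over its 4 probe sets in pure liver and between 7.05 and 11.31 in pure brain. In pure lung the same probe sets lay between 2.55 and 3.66. The Y-linked gene Eif2s3y, a translation factor gene, went the other way, with 8.92 to 9.01 in pure lung but 2.82 to 3.62 in pure liver and 2.41 to 2.63 in pure brain. Lung thus carried the transcript pattern of a male and liver and brain that of a female. A gene called lung-enriched below may therefore differ by tissue or by animal, which cannot be told apart here. Eif2s3y was named after its values were seen, and it serves as a tracer of the lung RNA. It read 3.19, 3.21 and 3.05 in the arrays of 65/34/1 and 4.46, 4.59 and 4.94 in those of 60/35/5. All 5% arrays lay above all 1% arrays, a difference of 1.51 ± 0.13 (log2, SE; limma adjusted p = 1.23e-10). The 1% arrays lay within the range of pure liver. Over the other mixtures its group mean was 4.48 and 5.02 at 5% lung, 5.56 and 5.64 at 10%, 6.34 at 15%, 6.66 at 20%, 7.19 and 7.38 at 25% and 8.26 at 70%. The means thus followed the labelled lung share throughout.

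**Figure D1:**
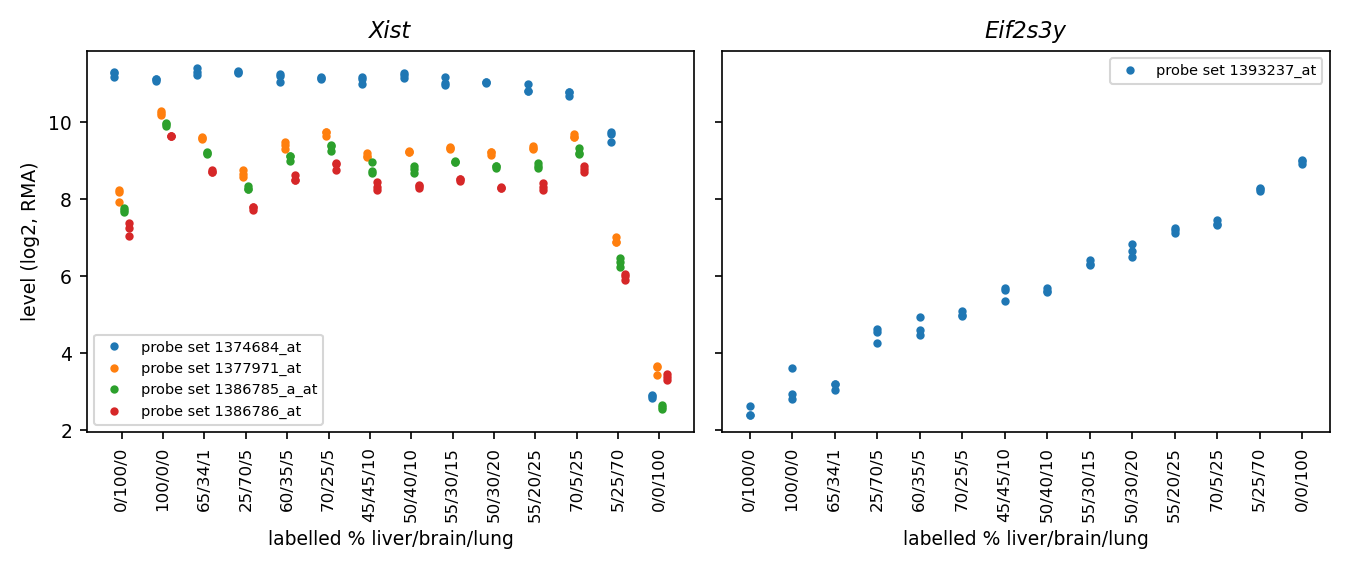
Levels (log2, y axis) of the 4 Xist probe sets and of the Eif2s3y probe set in each of the 42 arrays, with groups on the x axis ordered by labelled lung share; each point is 1 array. Each Xist probe set read higher in all other groups than in pure lung, at 2.55 to 3.66, while Eif2s3y climbed from 3.05 to 3.21 at 1% lung to 8.92 to 9.01 in pure lung.

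By limma over all 42 arrays, 686 probe sets (2.21% of 31042) were higher in 60/35/5 and 89 (0.287%) were lower, at a Benjamini-Hochberg adjusted p under 0.05. Lung-enriched means at least 2-fold higher in pure lung than in pure liver and in pure brain, each at an adjusted p under 0.05. The means compared for this came from other arrays, but the variance came from the same fit of 42 arrays. Of the 686, 671 belonged to the 2777 lung-enriched probe sets. That was 24.2% of the lung-enriched probe sets, against 0.0669% of those enriched in no tissue and 0 of 3571 brain-enriched and 0 of 2259 liver-enriched ones. With only the 6 arrays in the fit the counts were 376 higher and 8 lower, 375 of the former lung-enriched. Arrays of both groups did not overlap, with 60/35/5 higher, in 1118 of the 2777 lung-enriched probe sets. The background was 2003 of all 31042 probe sets (6.45%), which include the 1118.

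Scgb1a1, which encodes the secretoglobin of airway club cells, had the largest excess over pure liver and brain at 1% lung. It read 10.51, 10.53 and 10.52 in the arrays of 65/34/1 and 12.29, 12.29 and 12.27 in those of 60/35/5, against 3.85 ± 0.27 (log2, SD, n = 3) in pure liver and 3.73 ± 0.22 in pure brain. The 1% arrays thus stood 6.67 (log2) above the higher of the tissues without lung, with no array near it. Sftpc, whose product is a hydrophobic surfactant protein of type 2 cells, read 10.31, 10.28 and 10.25 at 1% and 12.18, 12.18 and 12.19 at 5%, against 4.47 ± 0.38 in liver. Sftpa1, a collectin of surfactant, averaged 7.85 ± 0.13 at 1% and 10.01 ± 0.11 at 5%, against 4.01 ± 0.34 in liver. The promoters of Scgb1a1 and Sftpa1 are shown because these genes led at 1% and have an entry among the RefSeq promoter sequences of build GRCr8, each 250 bases before and 50 after the start. They lie at chr1:215409637-215409936 on the minus strand and chr16:17042014-17042313 on the plus strand, and are printed in the direction of transcription. Capitals mark the letters CTCAAG on either strand, a core of the sequence bound by NKX2-1, the transcription factor that defines lung epithelium.
Scgb1a1: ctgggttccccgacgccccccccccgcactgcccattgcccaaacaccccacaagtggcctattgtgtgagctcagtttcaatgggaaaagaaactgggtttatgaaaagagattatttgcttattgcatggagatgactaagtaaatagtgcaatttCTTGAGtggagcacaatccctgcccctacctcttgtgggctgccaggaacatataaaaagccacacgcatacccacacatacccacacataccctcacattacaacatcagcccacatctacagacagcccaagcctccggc
Sftpa1: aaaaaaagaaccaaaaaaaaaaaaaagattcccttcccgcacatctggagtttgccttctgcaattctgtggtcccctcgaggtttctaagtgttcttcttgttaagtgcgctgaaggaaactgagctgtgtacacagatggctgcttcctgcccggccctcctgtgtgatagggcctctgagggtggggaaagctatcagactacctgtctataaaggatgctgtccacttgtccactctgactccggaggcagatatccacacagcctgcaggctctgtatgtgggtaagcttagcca

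The Scgb1a1 window held 1 such match, on the strand opposite to transcription, and that of Sftpa1 held 0. Among all 27457 promoter windows 15.6% held the letters, against 6 of the 23 with an entry among the 30 named genes with any probe set above both other tissues at 1% lung. Nkx2-1 itself was low but readable. It read 5.23, 5.22 and 5.23 at 1% and 6.02, 5.79 and 5.87 at 5%, against 4.68 ± 0.39 (log2, SD, n = 3) in pure liver and 4.80 ± 0.19 in pure brain. Pure lung averaged 9.54 ± 0.03. The 5% arrays lay above all 1% arrays, by 0.66 ± 0.11 (log2, SE; limma adjusted p = 6.11e-05).

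**Figure D2:**
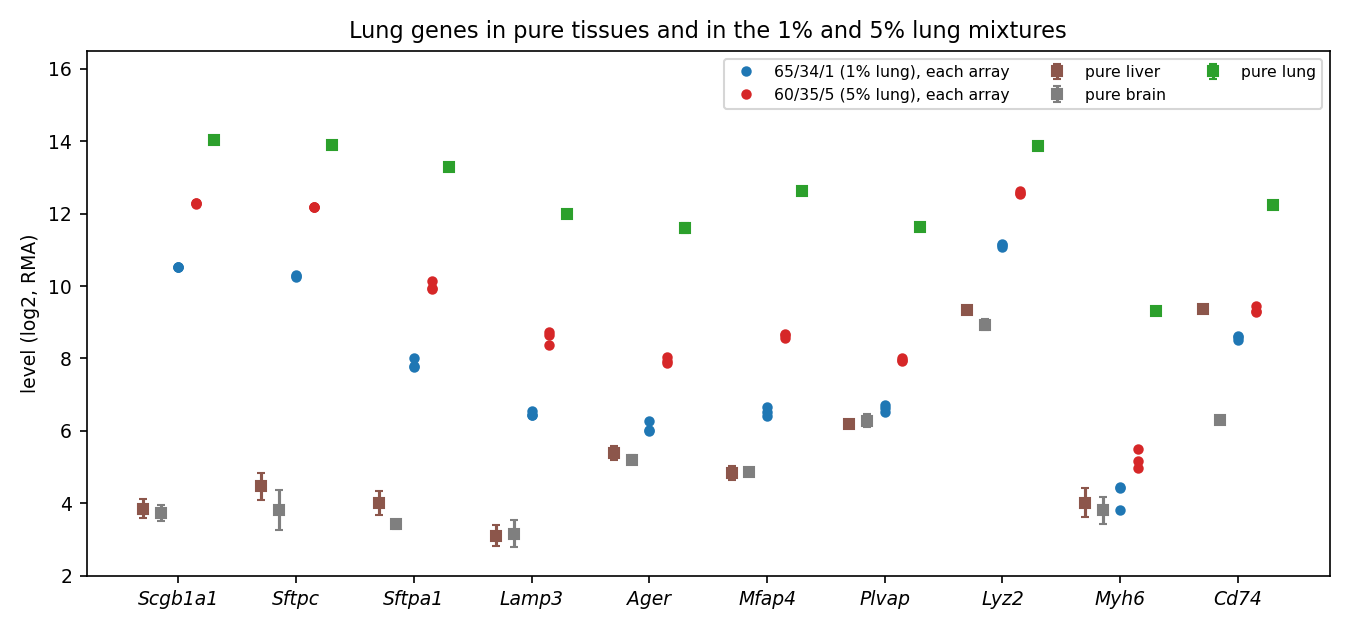
Levels (log2, y axis) of 10 lung genes. Circles are single arrays of 65/34/1 (blue) and 60/35/5 (red), and squares with bars are the mean and SD of 3 arrays of pure liver, brain and lung; Scgb1a1, Sftpc and Sftpa1 stood far above both pure tissues at 1% lung, while Cd74 and Myh6 did not.

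A strict measure of visibility was whether a mixture stood above pure liver and above pure brain, each at an adjusted p under 0.05, since neither tissue alone can then supply the level. In 65/34/1 this held for 37 probe sets (0.119% of 31042), all of them lung-enriched. In 60/35/5 it held for 272 (0.876%), of which 268 were lung-enriched. Pure liver and brain arrays enter both this measure and the definition of lung enrichment, so the agreement of both is not independent. With 1 probe set per gene, 29 of 14217 genes (0.204%) were visible at 1% and 185 (1.30%) at 5%. All 29 were also called higher at 5% than at 1%. Among the 37 probe sets, a Cav2 probe set was not called higher (0.50, log2, limma adjusted p = 0.0655), and its arrays overlapped.

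Of these 29 genes, 17 were on the cell type lists, and 12 of the 17 were on the alveolar type 1 and type 2 lists. A gene on a list can also be made by other lung cells, and which cells made the RNA was not tested. The type 2 list gave 8, namely Sftpc, Sftpb, Sftpa1, Sftpd, Lamp3, Slc34a2, Muc1 and Nkx2-1. The type 1 list gave 4, Ager, Emp2, Gprc5a and Cldn18. The secretory list gave Scgb1a1, the endothelial list Plvap, the matrix list Mfap4 and Mfap5, and the macrophage list Lyz2. The 17 did not stand equally clear. Their excess over the higher of pure liver and brain ran from 0.29 (log2) for Muc1 to 6.67 for Scgb1a1. Muc1 passed against liver at a limma adjusted p of 0.0113, and Mfap5, 0.44 above brain, at 0.0112. Lyz2 is also made by type 2 cells, and none of the other 8 measured macrophage genes lay above both pure tissues at 1%. Fabp4 lay 1.29 (log2) below pure liver. No member of the ciliated, basal, lymphatic, smooth muscle, antigen presenting, neutrophil, T and NK, B and plasma, mast, mesothelial or heart muscle lists was visible at 1%.

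Several of the brightest lung genes at 1% were on no list. Cxcl3, a chemokine gene, read 6.45, 6.69 and 6.56 at 1% and 8.78, 8.71 and 8.90 at 5%, against 2.95 ± 0.05 (log2, SD, n = 3) in liver. Defb4, a defensin gene, read 6.84, 6.91 and 6.91 at 1% and 8.95, 9.07 and 8.98 at 5%, against 4.44 ± 0.32 in liver. Postn, which encodes the matrix protein periostin, read 5.95, 5.76 and 5.85 at 1% and 7.84, 7.88 and 7.94 at 5%, against 4.25 ± 0.44 in liver. In each of these 3 the groups were wide apart and all 1% arrays lay above pure liver and brain.

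The 12 largest rises from 1% to 5% ran from 3.75-fold to 5.49-fold, beside a labelled ratio of 5-fold. Ly6i, a gene of the Ly6 surface protein family, read 5.35, 5.20 and 4.96 at 1% and 7.55, 7.63 and 7.70 at 5%, a 5.49-fold rise (2.46 ± 0.07, log2, SE; adjusted p = 3.46e-23). Sec14l3, a gene of the Sec14 lipid-binding family, rose 4.87-fold (2.28 ± 0.07; adjusted p = 1.61e-22) and Cxcl3 4.69-fold (2.23 ± 0.07; adjusted p = 1.30e-22). Sftpa1 followed at 4.45-fold, Defb4 at 4.33-fold, the elastic fibre gene Mfap4 at 4.28-fold, Lamp3 of type 2 cell lamellar bodies at 4.27-fold and Postn at 4.09-fold. Cldn18, a tight junction claudin, rose 3.93-fold, Sftpb 3.84-fold, Fam111a 3.78-fold and the epithelial keratin gene Krt19 3.75-fold. These were the 12 genes with the largest rises. Fam111a and Krt19 did not stand above liver at 1%. Krt19 read 4.60, 4.47 and 3.94 at 1%, 6.19, 6.23 and 6.33 at 5% and 4.77 ± 0.16 in pure liver.

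Each rise was set beside that expected from the labelled shares and the 3 pure means on the linear scale. Over all 2777 lung-enriched probe sets the median rise was 0.16 (log2) and the median expectation 0.17. Of the 479 lung-enriched genes called higher, 110 rose by less than expected, a description only, since the call favours large rises. Both Scgb1a1 and Sftpc were among the 110. Scgb1a1 rose by 1.76 ± 0.08 (log2, SE; limma adjusted p = 7.11e-18) where 2.23 was expected, and Sftpc by 1.91 ± 0.14 (2.45e-12) where 2.18 was expected. Other genes exceeded the expectation. Ly6i rose by 2.46 where 2.01 was expected, which was also more than the labelled ratio of 2.32. Ager, which encodes the receptor of type 1 cells known as RAGE, rose by 1.85 where 1.45 was expected, and Lyz2, the lysozyme of macrophages and type 2 cells, by 1.47 where 0.83 was expected. The error of the expectation itself was not estimated.

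**Figure D3:**
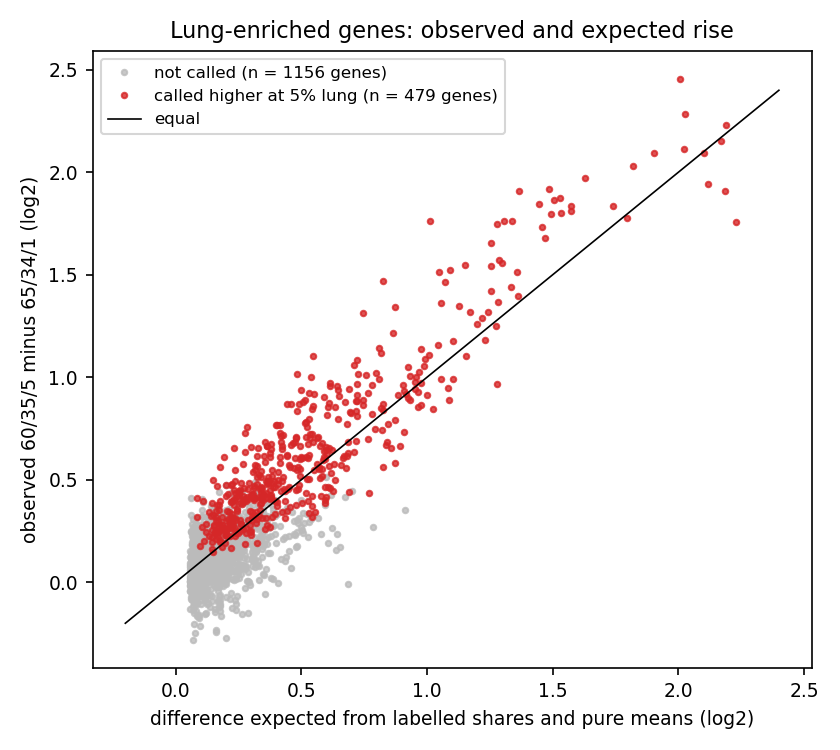
Observed difference 60/35/5 minus 65/34/1 (log2, y axis) against the difference expected from labelled shares and pure tissue means (log2, x axis) for the 1635 lung-enriched genes, 1 point each; red points are the 479 called higher by limma. The points climb along the line of equality, most red points lying above it, with Scgb1a1 and Sftpc below it at the right end.

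A second view expresses each level as an apparent lung share, the part of the way from the liver and brain sum to pure lung on the linear scale. Over the 37 probe sets visible at 1% the median apparent share was 0.968% in 65/34/1 and 5.81% in 60/35/5. These probe sets were picked for being high in 65/34/1, so both values are a description of them alone. They do not carry over to lung-enriched probe sets at large. For the 1634 probe sets 1 to 2 (log2) above the next pure tissue the median apparent shares were -6.89% and -4.57%, below the liver and brain sum in both mixtures. For the 692 at 2 to 3 above they were -2.60% and 0.376%. The extremes were wide. Lyz2 gave 11.3% and 38.7%, Scgb1a1 8.63% and 29.4%, and Sftpc 8.10% and 30.7%. Lyz2 read 11.15, 11.07 and 11.12 at 1%, 12.58, 12.55 and 12.63 at 5% and 13.87 ± 0.07 (log2, SD, n = 3) in pure lung. These 3 genes read 13.87 to 14.04 in pure lung. Among the low values, Fmo2, a flavin-containing monooxygenase gene, gave 0.596% and 4.69%.

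Calls were more frequent the further a lung gene stood above the other tissues. Of the 1634 lung-enriched probe sets 1 to 2 (log2) above the next pure tissue, 4.41% were higher at 5% lung and 0 were visible at 1%. At 3 to 4 above, 68.9% of 286 were higher at 5%, and 1 was visible at 1%. From 4 to 5 above, 92.6% of 108 were higher at 5% and 2 were visible at 1%. From 5 to 6 above, all 29 were higher at 5% and 7 were visible at 1%. At 6 to 7 it was 12 of 13, and beyond 7 all 15 were visible at 1%. They were also more frequent at a higher pure lung level. Of the 42 lung-enriched probe sets with a pure lung level of 12 or more, 83.3% were higher at 5% and 31.0% visible at 1%, against 1.24% and 0 of the 403 under 6.

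**Figure D4:**
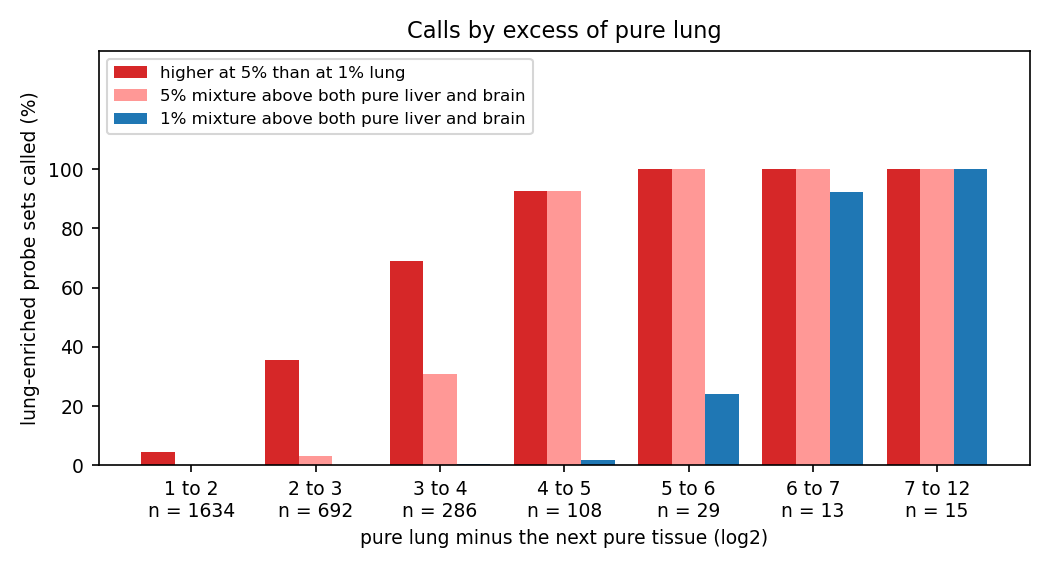
Share (%, y axis) of lung-enriched probe sets called, by the excess of pure lung over the next pure tissue (log2, x axis; n per bin under each group of bars). Red bars show probe sets higher at 5% than at 1% lung, pink bars those with 60/35/5 above both pure liver and brain, and blue bars those with 65/34/1 above both; the blue bars stand at 24.1% for 5 to 6 and 92.3% for 6 to 7.

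The lists are described by the number of measured genes called, against a background of 3.45% of 14217 genes higher at 5% lung. Their median difference is set against -0.02 over all probe sets. Most lung lists consisted mainly of lung-enriched genes, of which 479 of 1635 were higher, a much larger share. The ciliated (2 of 7), macrophage (2 of 9), T and NK (3 of 19) and heart muscle (2 of 13) lists, among others, did not exceed that share. In the type 2 list 11 of 13 genes rose, with a median difference of 1.75 (log2). Sftpd, a surfactant collectin, rose by 1.87, the phosphate transporter gene Slc34a2 by 1.86 and Napsa, a protease that processes surfactant protein B, by 1.75. Napsa stood at 5.49, 5.33 and 5.24 at 1% and at 7.11, 7.10 and 7.10 at 5%, with pure liver between at 5.78 ± 0.31 (log2, SD, n = 3). Abca3, the lipid transporter of lamellar bodies, rose by only 0.27 ± 0.07 (SE; adjusted p = 0.0149), with 7.82 in pure liver, 7.79 in pure brain and 10.05 in pure lung. Over 12 alternatives its adjusted p ran from 0.00450 to 0.255, the highest with only the 6 arrays. Ctsh (0.07, adjusted p = 0.634) and Etv5 (0.16, adjusted p = 0.633) were not called, and neither was lung-enriched.

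In the type 1 list 7 of 9 genes rose, with a median of 1.76. Ager averaged 6.11 ± 0.16 at 1% and 7.95 ± 0.08 at 5%, with pure liver at 5.39 ± 0.19 (log2, SD, n = 3). Aqp5, the water channel of type 1 cells, stood at 4.51, 4.86 and 4.60 at 1% and at 6.38, 6.61 and 6.27 at 5%, a rise of 1.76 ± 0.19 (SE; adjusted p = 1.50e-08), although pure liver read 5.47 ± 0.80. The 1% arrays of Aqp5 thus lay below the mean of pure liver. Hopx, a homeobox gene also expressed in brain, rose by 1.01 ± 0.05 (adjusted p = 5.06e-17), from 8.64, 8.61 and 8.74 to 9.64, 9.72 and 9.65, with pure brain at 9.18. Pdpn (podoplanin) rose by 1.29. Clic5 (0.07) and Akap5 (0.28, adjusted p = 0.0832) were not called.

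In the secretory list 5 of 10 genes rose: Scgb1a1 by 1.76, Scgb3a1 by 1.22, the palate, lung and nasal epithelium gene Bpifa1 by 0.93, the P450 gene Cyp4b1 by 0.84 and Bpifb1 by 0.60. Bpifa1 read 5.47, 5.10 and 4.99 at 1% and 6.09, 6.09 and 6.17 at 5%, against 5.03 ± 0.15 (log2, SD, n = 3) in pure liver. The mucin genes Muc5b (0.29) and Muc5ac (-0.07) were not called. Of 7 measured ciliated cell genes 2 rose, Tppp3 by 0.56 ± 0.09 (SE) and the dynein light chain gene Dynlrb2 by 0.44 ± 0.10, both of which brain also expressed at 7.85 and 6.59. The count was 1 of 7 with only the 6 arrays, without 60/35/5 array 3 and without 65/34/1 array 1. Foxj1, the master regulator of motile cilia, gave 0.16 (adjusted p = 0.555), at a pure lung level of 5.17. Among 4 basal cell genes none was called, with Krt5 at -0.05 and a pure lung level of 4.06.

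**Figure D5:**
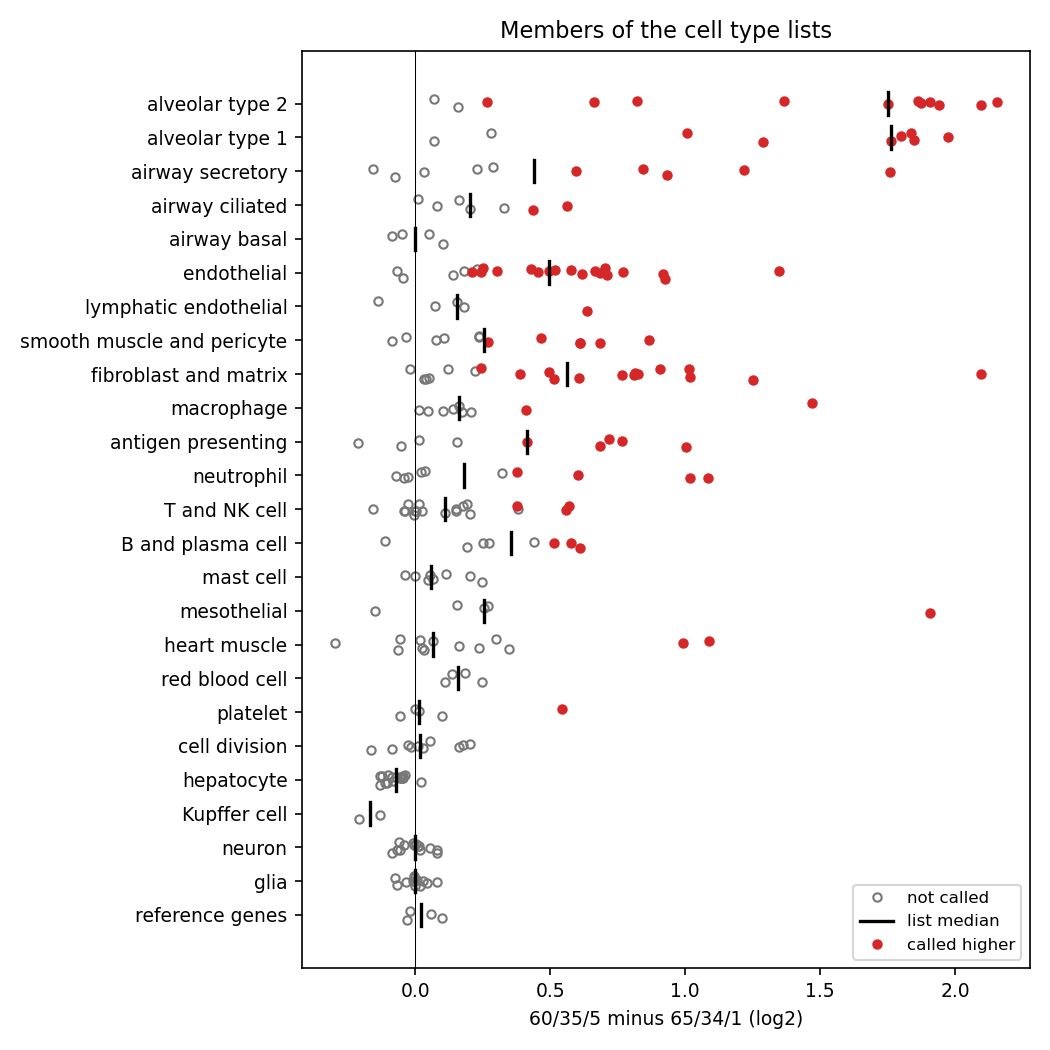
Difference 60/35/5 minus 65/34/1 (log2, x axis) of each measured gene of 25 lists (y axis), 1 point per gene; filled red points were called higher by limma, open points were not called, and bars mark list medians. The alveolar lists lie furthest right, with medians of 1.75 and 1.76, and the hepatocyte, neuron, glia and reference lists lie around 0.

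Endothelial genes rose broadly but by less. Of 23 measured, 18 rose, with a median of 0.49 (log2). Plvap, a protein of capillary fenestrae and caveolae, led. It read 6.64, 6.51 and 6.71 at 1% and 7.94, 7.95 and 8.02 at 5%, a rise of 1.35 ± 0.06 (SE; adjusted p = 1.09e-17), against 6.27 ± 0.18 (SD, n = 3) in pure brain. Ace, which makes angiotensin II, and Tmem100 rose by 0.92 each, Clec14a by 0.77 and the calcitonin receptor-like gene Calcrl by 0.71. Vwf (von Willebrand factor) read 6.52, 6.65 and 6.66 at 1% and 7.23, 7.27 and 7.18 at 5%. Pure brain, at 7.16 ± 0.03, was as high as the 5% arrays, so Vwf changed between the mixtures without standing above brain. Kdr, the main VEGF receptor, had 11.68 in lung but 9.98 in liver, and its 0.14 was not called (adjusted p = 0.440). Flt1 (-0.07), Edn1 (0.18), Car4 (0.23) and S1pr1 (-0.05) were not called either. With only the 6 arrays 11 of 23 passed. Of the 5 lymphatic genes the chemokine gene Ccl21 rose by 0.64 ± 0.12 (adjusted p = 3.72e-04), and Lyve1, at 9.45 in liver, gave 0.15 (adjusted p = 0.233). No lymphatic gene passed with only the 6 arrays.

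Matrix genes behaved much like endothelium. In the fibroblast and matrix list 14 of 20 rose, with a median of 0.56, and 10 of 20 with only the 6 arrays. Mfap4 read 6.52, 6.41 and 6.66 at 1% and 8.57, 8.65 and 8.67 at 5%, against 4.86 ± 0.07 (log2, SD, n = 3) in pure brain. Mfap5, another microfibril gene, rose by 1.25 ± 0.15 (SE; adjusted p = 1.61e-07). The collagen genes Col1a1 and Col6a3 rose by 1.02 and 1.01, Col3a1 by 0.91, and the fibrillin gene Fbn1 by 0.82. Col1a1 read 5.42, 5.39 and 5.55 at 1%, close to 5.33 in pure liver and 5.30 in pure brain, and 6.39, 6.48 and 6.54 at 5%. Elastin (Eln) rose by 0.39 ± 0.10 (adjusted p = 0.0225), and over 12 alternatives its adjusted p ran from 0.00299 to 0.198. Pdgfra, a receptor of lung fibroblasts, gave 0.03 (adjusted p = 0.905).

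Of 12 smooth muscle and pericyte genes 6 rose, with a median of 0.25, and 2 with only the 6 arrays. Tagln (transgelin) read 6.78, 6.94 and 6.98 at 1% and 7.74, 7.77 and 7.79 at 5%, a rise of 0.87 ± 0.07 (SE; adjusted p = 3.01e-11). The smooth muscle myosin Myh11 rose by 0.61 and the actin gene Actg2 by 0.69. Acta2 gave 0.24 (adjusted p = 0.492). Heart muscle genes, which rat lung samples can hold through the muscle sleeve of pulmonary veins, were called in 2 of 13 cases. The atrial myosins Myh6 and Myl7 rose by 0.99 ± 0.16 and 1.09 ± 0.13. Myh6 read 4.42, 4.44 and 3.82 at 1% and 5.17, 4.98 and 5.50 at 5%, against 4.02 ± 0.40 (log2, SD, n = 3) in liver and 9.32 ± 0.05 in lung. All 5% arrays lay above all 1% arrays, and the 1% arrays could not be told from liver. Tnni3 and Tnnt2 of the same muscle gave 0.02 and 0.35 and were not called.

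Leukocyte lists differed among themselves. In the antigen presentation list 5 of 9 rose, all of them class II genes or their chaperone. The 4 others, Ciita, Cd86, Flt3 and Ccr2, were not called. Which cells made these class II transcripts was not tested. RT1-Bb rose by 1.00 ± 0.07 (log2, SE; adjusted p = 1.71e-12), Cd74, the invariant chain, by 0.77 ± 0.05 (2.77e-13), RT1-Ba by 0.72, RT1-Da by 0.68 and RT1-Db1 by 0.41. Cd74 read 8.61, 8.50 and 8.62 at 1% and 9.27, 9.45 and 9.30 at 5%, with pure liver at 9.38 ± 0.04 (SD, n = 3). The 1% arrays thus lay below pure liver. Of 9 macrophage genes Lyz2 and Fabp4 (0.41 ± 0.11, adjusted p = 0.0227) rose, and 1 of 9 with only the 6 arrays, without 60/35/5 array 2 and without 65/34/1 array 1 or 2. Cd68 and Mrc1, shared by macrophages of all 3 tissues, gave 0.14 and 0.05. In the neutrophil list 4 of 10 rose: S100a9 by 1.08, the lipocalin gene Lcn2 by 1.02, S100a8 by 0.60 and Il1b by 0.38, with 2 of 10 called with only the 6 arrays and without 65/34/1 array 1. S100a9 read 4.93, 4.88 and 5.27 at 1% and 6.02, 6.10 and 6.21 at 5%, against 5.96 ± 0.37 in liver.

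Most lymphocyte genes were lung-enriched, but most were not called higher at 5% lung. Lung-enriched T and NK cell genes had a median rise of 0.15 (log2) where 0.19 was expected from the labelled shares. For lung-enriched B and plasma cell genes it was 0.44 where 0.26 was expected. Of 19 T and NK cell genes, 17 were lung-enriched, and 3 rose: Ccl5 by 0.57, Klrd1 by 0.56 and the perforin gene Prf1 by 0.38, with 1 of 19 left in the 6-array fit. The T cell receptor complex genes Cd3d, Cd3e and Cd3g gave 0.00, -0.16 and 0.11, at pure lung levels of 6.40, 6.98 and 7.76. Of 8 B and plasma cell genes 3 rose, Jchain of secreted antibody by 0.61, Fcrla by 0.58 and Ms4a1 (CD20) by 0.51, with 2 in the 6-array fit. None of 8 mast cell genes was called, with the carboxypeptidase gene Cpa3 at 0.20 (adjusted p = 0.381). Of 5 mesothelial genes Krt19, which airway epithelium also makes, was called, and Msln (mesothelin) at 0.27 was not. In bulk RNA, fewer cells of a type and less RNA per cell cannot be told apart, so these differences between lists describe transcripts.

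Blood cell and cell division genes gave few calls. Of 4 red cell genes none was called, with the globin gene Hbb at 0.13 (adjusted p = 0.125) and already at 12.25 in liver. Over 12 alternatives the adjusted p of Hbb ran from 0.00828 to 0.580, and it passed with an intensity trend in the variance, the filter on dim probe sets and the 5th percentile subtracted. The platelet chemokine gene Pf4 rose by 0.54, 1 of 5 platelet genes, and none was called in the 6-array fit, without 60/35/5 array 2 or without 65/34/1 array 1. None of 10 cell division genes was called, although 7 were lung-enriched. The 6 brightest lung-enriched genes not called were Hbb, the chromatin gene Hmgn1, Pls3, Cd59b, Hsd11b1 and Kdr, with differences of 0.09 to 0.14. Each stood less than 2 (log2) above the next pure tissue, as Hmgn1 did with 12.01 in lung and 10.57 in brain.

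Among the 686 probe sets higher at 5% lung, 15 were not lung-enriched, and 12 of the 15 still had their highest pure level in lung. The 3 genes with the largest such rise were Klk1b3 (0.43 ± 0.11, log2, SE; adjusted p = 0.0274), Podn (0.38 ± 0.10, 0.0277) and the homeobox gene Hoxd3 (0.38 ± 0.09, 0.00744). Each was dim, between 3.37 and 5.84 in pure lung, and Klk1b3 and Hoxd3 read higher in pure liver. All 3 lost the call under an alternative. With only the 6 arrays the adjusted p was 0.169 for Podn and 0.218 for Hoxd3, and with quantile normalization repeated it was 0.0518 for Klk1b3. Over all alternatives it ran from 0.0146 to 0.231 for Podn, from 9.12e-04 to 0.218 for Hoxd3 and from 0.00548 to 0.160 for Klk1b3. The 89 lower probe sets fell by 0.15 to 0.62 (log2), with a median of -0.26, and 80 of them had their highest pure level in liver. At 1 probe set per gene the lower calls were 49 of 14217 (0.345%). The largest falls were in Sult1c2 (-0.48 ± 0.14, SE; adjusted p = 0.0453), a liver sulfotransferase gene, Tesk2 (-0.39), Chrna7 (-0.39), Arhgef11 (-0.39) and Slc35f6 (-0.37). With only the 6 arrays 4 of these 5 falls were not called, with adjusted p of 0.167 for Sult1c2, 0.0584 for Tesk2, 0.0722 for Chrna7 and 0.114 for Slc35f6. Over 12 alternatives the adjusted p ran from 0.0114 to 0.340 for Sult1c2, 0.00645 to 0.0966 for Tesk2, 0.00509 to 0.0988 for Chrna7, 0.00864 to 0.0893 for Arhgef11 and 0.00267 to 0.114 for Slc35f6. Sult1c2 read 4.95, 5.01 and 5.00 at 1% and 4.50, 4.25 and 4.76 at 5%. The count of lower calls moved with each array left out, to 45, 58 and 163 without arrays 1, 2 and 3 of 60/35/5 and to 54, 43 and 35 without those of 65/34/1.

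Among liver-enriched probe sets 56 of 2259 (2.48%) fell, with a median difference of -0.11 (log2) over all of them where -0.08 was expected. Brain-enriched probe sets had a median of -0.04 where 0.03 was expected, and 30.7% of the 3571 were above 0, with none called by limma. None of 17 hepatocyte genes was called, with a median of -0.07 (log2) where the shares give -0.12, and Alb at -0.04. The 2 measured Kupffer cell genes, Clec4f and Cd5l, gave -0.21 and -0.13 (adjusted p = 0.189 and 0.688). None of 14 neuron and 12 glia genes was called, with list medians just under 0, Snap25 at 0.05 and Mbp at 0.02. Of 4 measured reference genes none was called.

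Comparison with a computed liver and brain sum was less specific than comparison with both pure tissues. In 65/34/1, 243 lung-enriched probe sets lay above the share-weighted sum of pure liver and brain (limma, delta method, adjusted p under 0.05), but so did 2034 of 3571 brain-enriched ones, and 10.7% of all probe sets. In 60/35/5 the counts were 688 and 1477, with 9.91% of all. Lying above that sum at 1% lung therefore did not mark lung genes.

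The same labelled 5% of lung was present in 25/70/5 and 70/25/5, with other shares of liver and brain. The 37 probe sets visible at 1% did not read alike there. In 25/70/5, 35 of the 37 were lower than in 60/35/5, against 15301 of all 31042 probe sets. Of the 37, 27 were called lower by limma, against a background of 21.5% of all probe sets called lower. Their median difference was -0.29 (log2). In 70/25/5, 35 of 37 were higher, against 14808 of all 31042 probe sets. Of the 37, 15 were called higher, against a background of 11.6% of all probe sets called higher, and their median difference was 0.23. Sftpb averaged 8.35 in 25/70/5, 8.74 in 60/35/5 and 8.96 in 70/25/5, and Lamp3 8.22, 8.58 and 8.79. Scgb1a1, at 12.30, 12.28 and 12.33, differed far less. Both contrasts share the 60/35/5 arrays.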

How the data were processed

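The authors deposited log2 levels per probe set, computed with RMA, per the submitters' processing notes, which give no version. RMA equalises array distributions, which can shift tissues against each other. The table held 31099 probe sets, of which 57 controls were left out. The platform annotation gave 20826 probe sets 1 gene, and genes were represented by the probe set with the highest mean over all arrays (14217 genes). Other probe sets of a called gene were not always called. Tmem100, Col6a3, Myh11, RT1-Bb and Abca3 had 2 probe sets each, with 0 others called. Cxcl3 had 5 and RT1-Ba 4, each with 1 other called. In Sftpa1, Sftpb, Emp2 and Cldn18 all other probe sets were called higher too. Limma 3.58.1 (R 4.3.3) was fitted to all 42 arrays, estimating 1 mean for each group, with residual degrees of freedom of 28 and prior ones of 4.56, and with Benjamini-Hochberg adjustment over 31042 probe sets. The smallest number of arrays per group, 3, limits the precision. In no pair of the 6 arrays were more than 20 values equal, so no array was a copy of another. Each counted as 1 technical replicate, as the labels describe them. The fit was also run on data simulated from its own means and variances with normal noise. Such data cannot show whether it suits the noise of real arrays.

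The mixtures, gene lists and alternatives were chosen with earlier results of these data known. Named were the 12 largest rises and 5 largest falls, the 3 leading and all called members of each lung list, the 6 brightest lung-enriched genes not called, the 6 with the largest excess at 1% lung, the 2 brightest of each liver and brain list and the 3 largest rises outside lung-enriched genes; others were named to show their list and chosen after their values were seen. Alternatives were the arrays fitted, the variance trend, scaling, filters, background and leaving out arrays. Python 3.11.15 with matplotlib 3.10.9 made the figures.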

Additional observations from a re-analysis of the deposited data

How the results depend on the processing

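No paired analysis was possible because the labels carry no replicate numbers. With only the 6 arrays fitted, 376 probe sets were higher and 8 lower, and 375 lung-enriched ones were higher. With a 1.5-fold limit on the call the counts were 304, 1 and 304. The lower calls were 171 with the filter on dim probe sets and 145 with the 5th percentile subtracted. At 1 probe set per gene, 156 and 454 lung-enriched probe sets lay above the lung-free sum at 1% and 5%, and 161 at 1% with 4-fold enrichment. Leaving out each array gave 595 to 649 higher and 35 to 163 lower calls. No named gene reversed its direction while called in either setting. The 6-array fit lost 31 calls of named genes, all with the same direction. Levels near 3 are those of dim probe sets, where the fold of a trace gene is poorly measured.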
